A study of Mus musculus with 2 samples.

Results

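NF-kappaB subunits and the genes of their negative feedback were examined in primary mouse fibro-adipogenic progenitors (FAPs), mesenchymal cells of skeletal muscle that can become adipocytes. The group held 10 genes: the subunits Nfkb1, Nfkb2, Rel, Rela and Relb, the inhibitors Nfkbia, Nfkbie and Nfkbiz, and the feedback enzymes Tnfaip3 and Birc3. They were chosen by pathway membership and found by their symbols, which matched 10 of the 26082 gene entries in both libraries. All 10 had more than 3 counts in at least 1 library, as did 21364 genes in all, and 9 of them averaged 1 FPKM or more over the libraries, the exception being Rel. Genes at or above that average, 11213 in all, are called expressed genes. FPKM is the fragment count scaled by exon length and by library total, and it is the scale on which levels of different genes are compared here.

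The study transfected FAPs with vector or TGFBR3 overexpressing plasmids and sequenced poly(A) RNA from 1 library per condition. Both libraries came from wild-type (WT) primary cells under adipogenic differentiation, and the number of animals is not given in the sources used here. Both were exposed to the same DMEM-based medium, which held insulin at 10 μg/ml, the glucocorticoid dexamethasone at 0.25 μM, the phosphodiesterase inhibitor IBMX at 0.5 mM, and FBS at 20%. The comparison asked how the transcriptome of these cells differed when TGFBR3, a co-receptor of TGF-beta ligands, was to be overexpressed. With 1 library on each side the spread between cultures cannot be measured, so no test was possible, and every difference below is between these 2 libraries.

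NF-kappaB proteins are dimers of Rel family subunits that are held in the cytoplasm by inhibitors of the IkappaB family. In the canonical pathway the IKK complex marks the inhibitor for degradation and frees dimers such as those of Rela and the p50 product of Nfkb1, whereas the noncanonical pathway processes the p100 product of Nfkb2 to p52, the partner of Relb. Several of these genes are themselves NF-kappaB targets, so that Nfkbia, Tnfaip3 and others form negative feedback, and in muscle the pathway is best known for inflammatory signalling.

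Tgfbr3, the gene named in the treatment, was examined first. Its FPKM was 36.9 (16372 counts) in the library labelled OE (TGFBR3 overexpression in the plots) and 35.1 (21245 counts) in the library labelled control (vector control in the plots), a log2 ratio of (FPKM + 1) of 0.07 (95% counting interval 0.04 to 0.10), and −0.06 after centring on the median gene. Tgfbr3 did not set the libraries apart, and every direction below is by label alone. Total counts were 62321027 and 83779203, and the median of 10626 genes that reached 1 FPKM in each library was 0.13 higher on the log2 scale in the library labelled OE. Log2 ratios also followed the GC content of the exons, with medians over 20 bins of genes running from 0.45 in the lowest bin to −0.25 in the highest. The FAP markers were present, with Pdgfra at 30.5 and 32.6 FPKM and Ly6a at 1013 and 706 FPKM, but 6 of the 8 were below 0 in the library labelled OE, with a median log2 ratio of −0.20, and −0.45 with the GC trend removed. Of these, Col3a1 was at least 2-fold lower (log2 ratio −1.05), and the plain ratio was 0.537 for Col1a1, 0.683 for Mfap5 and 0.803 for Cd34. What part these had in the differences below was not tested. All 9 macrophage markers were at or below 0.46 FPKM in the library labelled OE and 0.39 in the library labelled control, and the defining markers Adgre1, Tyrobp and Fcer1g had 0 counts in both. Their summed counts were 244 and 245, but the libraries differ in depth, and their summed FPKM were 0.91 and 0.54. Of the 6 macrophage markers tested, 4 were above 0 and 1 below, with C1qb at 20 against 0 counts and C1qa at 0 against 8. Endothelial markers reached at most 1.04 and 1.09 FPKM, in Tek. In the library labelled OE, counts were higher for Kdr (262 against 65), Emcn (27 against 3), Pecam1 (24 against 8) and Cldn5 (23 against 0), and lower for Cdh5 (165 against 328). Muscle cell markers reached 1.13 and 0.75 FPKM, and the 3 lymphocyte markers measured 0.05 and 0.04. In bulk RNA, fewer cells of a type and less RNA per cell cannot be told apart.

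The same genes dominated the group in both libraries. Nfkbia, the prototypic IkappaB inhibitor, was highest at 48.4 FPKM in the library labelled OE and 51.3 in the library labelled control, followed by Rela at 36.5 and 36.4. Below them the order differed: Nfkbiz, Nfkb2, Nfkb1, Relb, Tnfaip3, Nfkbie and Birc3 followed one another in the library labelled OE, against Nfkb2, Nfkbiz, Relb, Nfkb1, Nfkbie, Birc3 and Tnfaip3 in the library labelled control. Rel was last in both, at 0.50 and 0.38 FPKM. Within the library labelled OE, the neighbours Nfkbiz (14.1 to 15) and Nfkb2 (13.7 to 14.5) had overlapping counting intervals, as had Nfkbie (4.16 to 4.74) and Birc3 (4.03 to 4.47), so those pairs did not differ beyond counting error. In the library labelled control the intervals of all neighbours were apart. Counting intervals are exact Poisson for these levels and exact Clopper-Pearson for ratios between libraries. Those for ratios of ratios are a normal approximation. All cover counting error only, since no molecular identifiers are stated and PCR copies of a fragment are not independent molecules.

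**Figure D1:**
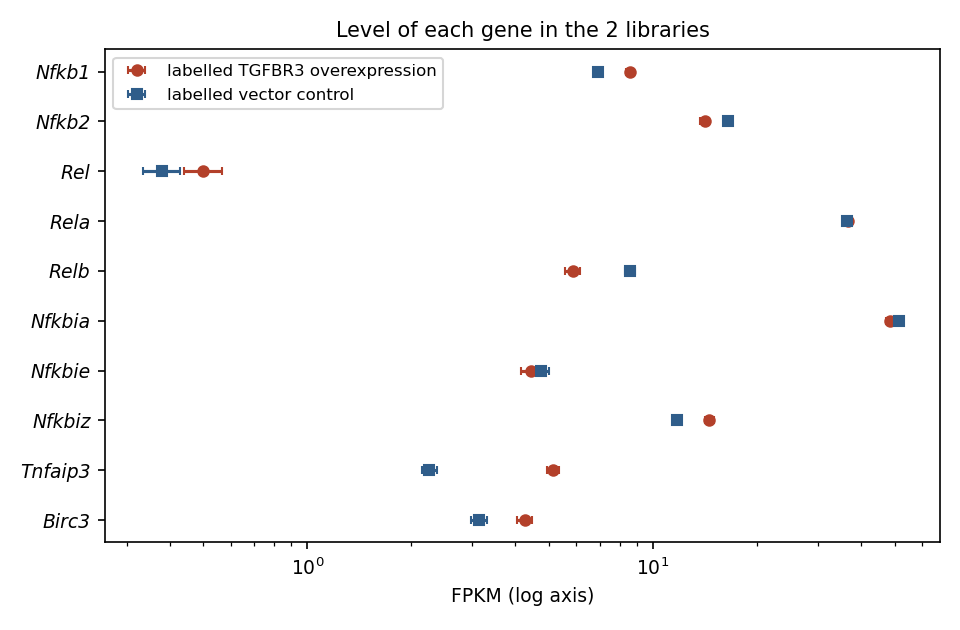
Level of each of the 10 genes (FPKM, log axis) in the library labelled OE and the library labelled control, with 95% counting intervals and 1 library per condition. Nfkbia and Rela lie at the top in both, Rel lies at the bottom, and Tnfaip3 shows the widest gap, at 5.14 against 2.25 FPKM.

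No gene of the group was at least 2-fold higher or lower in the library labelled OE once 1 was added to each FPKM. This was 0 of 10 higher, against 1.73% of the 21364 genes, and 0 of 10 lower, against 0.58%. By the plain ratio of FPKM, without the added 1, Tnfaip3 was at least 2-fold higher, which is 1 of the 9 expressed members, against 6.59% of the 11213 expressed genes, and 0 of 9 were at least 2-fold lower, against 1.85%. The only call by that measure rests on this gene, so the count is no result about the group. On the log2 scale with the added 1, 6 of the 10 were above 0 and 4 below, with a median of 0.06, beside medians of 0.06 over all genes tested and 0.14 over expressed genes. By role the medians were 0.01 for the 5 subunits, −0.08 for the 3 inhibitors and 0.63 for the 2 feedback enzymes, which were Tnfaip3 at 0.92 and Birc3 at 0.35. With the GC trend removed these medians were 0.03, −0.02 and 0.36, with Tnfaip3 at 0.68 and Birc3 at 0.03.

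**Figure D2:**
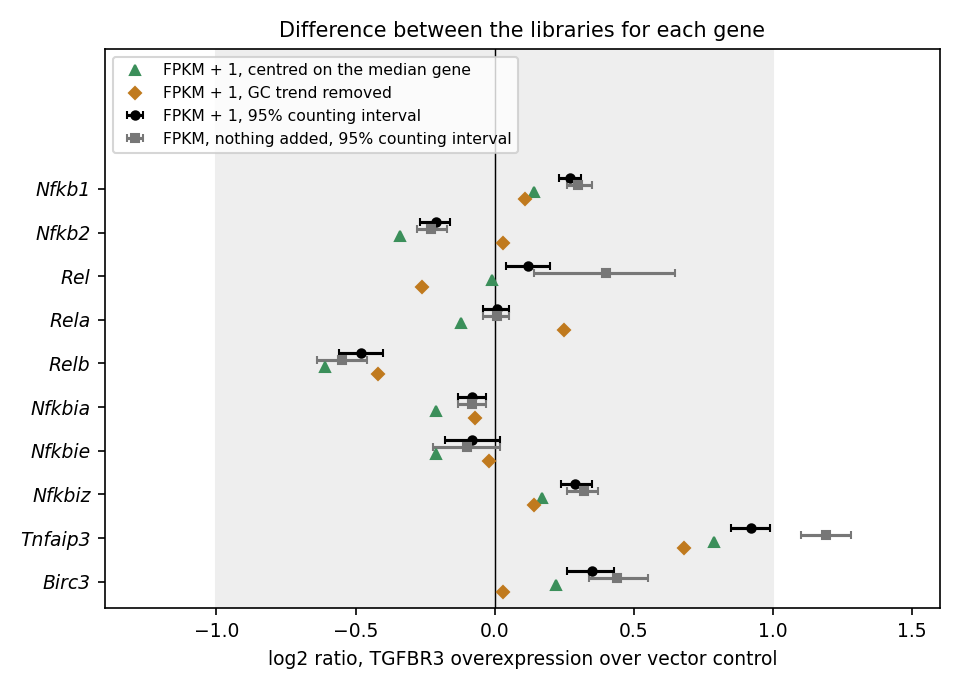
Log2 ratio of (FPKM + 1) for each gene, library labelled OE over library labelled control, beside the plain log2 ratio, both with 95% counting intervals, and beside the value after centring on the median gene and after removal of the GC trend. Tnfaip3 is highest on each scale (0.92, 1.19, 0.79 and 0.68) and Relb lowest (−0.48, −0.55, −0.61 and −0.42).

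Among the subunits, Relb, the partner of p52 in the noncanonical pathway, was lower in the library labelled OE, while Rela, the main transactivating subunit, differed by no more than counting error on this scale. Coordinates of genes are on mm10 by the GENCODE M21 annotation. Relb (ENSMUSG00000002983, chr7:19606217-19629438, minus strand) had an FPKM of 5.86 (1547 counts) in the library labelled OE and 8.57 (3080 counts) in the library labelled control. Its level was 0.684 times that of the library labelled control (95% counting interval 0.643 to 0.727), and its log2 ratio with the added 1 was −0.48. It was below 0 under all 10 other ways of computing the ratio, from −0.74 to −0.42, and 7.47% of the expressed genes had a lower log2 ratio. Rela (ENSMUSG00000024927, chr19:5637483-5648130, plus strand) stood at 36.5 FPKM (7621 counts) and 36.4 FPKM (10340 counts), which is a ratio of 1.0 (0.974 to 1.03). That equality depended on the scale, because the log2 ratio of Rela was −0.12 after centring on the median gene and 0.25 after removal of the GC trend, its exons being rich in GC at 59.6%.

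Nfkb1 and Nfkb2, which encode the precursors p105 and p100, differed in opposite directions before correction for GC. Nfkb1 (ENSMUSG00000028163, chr3:135584655-135691547, minus strand) was at 8.57 FPKM (7016 counts) in the library labelled OE and 6.94 (7736 counts) in the library labelled control, 1.23 times as high (1.2 to 1.28). Nfkb2 (ENSMUSG00000025225, chr19:46304320-46312385, plus strand) was at 14.1 FPKM (4383 counts) and 16.5 FPKM (6992 counts), 0.853 times as high (0.822 to 0.886). The exons of Nfkb2 hold 59.6% GC and those of Nfkb1 48.8%, and with the GC trend removed the log2 ratios were 0.03 for Nfkb2 and 0.11 for Nfkb1, so the opposite directions were lost. The log2 ratio of Nfkb1 was below 0, at −0.06, with the trend over exon length removed. Part of the Nfkb2 exons lies opposite other genes, with 11.58% of its exon bases shared with the antisense transcript AC114539.1 and 6.52% with Psd, whose own FPKM was 0.79 and 0.49, and whether the counting used strand is not given in the sources used here. Rel (ENSMUSG00000020275, chr11:23736847-23770970, minus strand), which encodes the lymphoid subunit c-Rel, had 253 and 259 counts. Its plain ratio of 1.32 (1.10 to 1.57) became a log2 ratio of 0.12 with the added 1 and −0.26 with the GC trend removed, and its sign held under only 6 of 10 alternatives.

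The makeup of the subunit transcripts shows the same differences as shares. The 5 subunits summed to 65.6 FPKM in the library labelled OE and 68.8 in the library labelled control. Rela made up 55.8% and 52.9% of these sums, Nfkb2 21.5% and 24%, Nfkb1 13.1% and 10.1%, Relb 8.94% and 12.5%, and Rel 0.763% and 0.552%. FPKM divides by the summed exons of a gene, which are 12061 bases for Nfkb1 against 4117 bases in its longest coding transcript, so its level relative to the others depends on that choice. With the length of the longest coding transcript, Nfkb1 rose in the order to the third place in both libraries and made up 26.7% and 21% of the subunit sum. Relb remained a smaller share in the library labelled OE on this length too, at 11% against 15.6%.

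Ratios of members within a library need no scaling between libraries. The FPKM ratio of Relb to Rela was 0.16 in the library labelled OE and 0.235 in the library labelled control, 0.681 times as large (0.637 to 0.729). Relb was also lower relative to Nfkb2, its partner gene, at 0.416 against 0.519 (ratio of ratios 0.801, 0.746 to 0.861). On the log2 scale these plain differences were −0.55 for Relb over Rela and −0.32 for Relb over Nfkb2. Both kept their sign with the GC trend removed, at −0.77 and −0.54, or −0.67 and −0.45 with the added 1. The ratio of Nfkb2 to Nfkb1 was 1.64 against 2.38, but its log2 difference was −0.04 with the GC trend removed, or −0.08 with the added 1. For Nfkb1 over Rela the ratio was 0.234 against 0.191. Its log2 difference changed sign to −0.20 with that trend removed, or −0.14 with the added 1.

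The promoters of Rel and Nfkb2 are shown because both held matches to the kappaB consensus, the sequence that NF-kappaB dimers bind. The consensus was searched on both strands as 3 guanines, a purine, any base, an A or T, 2 pyrimidines and 2 cytosines, written here by name. In the windows below, taken from RefSeq on GRCm38.p6, capitals mark the matches, and each window runs 5′ to 3′ on the strand of its gene from 130 bases before to 20 bases after the annotated start. The Rel window is chr11:23770950-23771099 on the minus strand, and the Nfkb2 window, at the first of 3 annotated starts, is chr19:46304607-46304756 on the plus strand.
Rel: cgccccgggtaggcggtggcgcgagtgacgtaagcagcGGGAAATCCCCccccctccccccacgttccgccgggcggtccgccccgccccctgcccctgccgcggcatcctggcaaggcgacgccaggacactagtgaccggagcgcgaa
Nfkb2: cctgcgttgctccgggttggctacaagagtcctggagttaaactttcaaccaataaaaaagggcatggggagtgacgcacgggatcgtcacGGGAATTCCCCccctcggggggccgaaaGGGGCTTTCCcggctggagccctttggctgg
The capitals of Rel cover 2 overlapping matches from −92 to −82, and the first capitals of Nfkb2 cover 2 overlapping matches from −39 to −29, ahead of another match from −11 to −2. Both genes thus carry the letters, while their log2 ratios were small and changed sign with the GC trend removed.

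The inhibitors were close to level between the libraries, apart from Nfkbiz. Nfkbia (ENSMUSG00000021025, chr12:55489410-55492647, minus strand), which encodes IkappaB-alpha, had an FPKM of 48.4 (5286 counts) in the library labelled OE and 51.3 (7628 counts) in the library labelled control, 0.944 times as high (0.911 to 0.978). Nfkbie (ENSMUSG00000023947, chr17:45555703-45563169, plus strand), which encodes IkappaB-epsilon, was at 4.44 FPKM (918 counts) and 4.75 FPKM (1339 counts), 0.935 times as high (0.859 to 1.02), an interval that includes 1. Both were below 0 under all 10 alternatives, though by no more than −0.01 and −0.02 at the nearest. The ratio of Nfkbie to Nfkbia within a library was 0.0918 and 0.0926, a difference within counting error (ratio of ratios 0.989, 0.903 to 1.08). Nfkbiz (ENSMUSG00000035356, chr16:55811375-55838899, minus strand) encodes IkappaB-zeta, a nuclear member of the family that acts on secondary response genes rather than holding dimers in the cytoplasm. It stood at 14.5 FPKM (4950 counts) against 11.7 FPKM (5412 counts), 1.25 times as high (1.2 to 1.30), and was above 0 under all 10 alternatives, from 0.09 to 0.36. Relative to Nfkbia within each library it was 0.3 against 0.228, 1.32 times as large (1.25 to 1.39). The log2 ratio of Nfkbiz was exceeded by 34.8% of the expressed genes, so its size was common in these libraries.

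The promoters of Nfkbia and Nfkbie each held 1 match to the kappaB consensus. They are shown, in the same layout, since these inhibitors are textbook feedback targets of the pathway. The Nfkbia window is chr12:55492628-55492777 on the minus strand and the Nfkbie window is chr17:45555570-45555719 on the plus strand.
Nfkbia: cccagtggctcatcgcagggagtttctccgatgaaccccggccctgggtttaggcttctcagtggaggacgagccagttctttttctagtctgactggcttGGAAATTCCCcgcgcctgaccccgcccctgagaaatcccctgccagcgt
Nfkbie: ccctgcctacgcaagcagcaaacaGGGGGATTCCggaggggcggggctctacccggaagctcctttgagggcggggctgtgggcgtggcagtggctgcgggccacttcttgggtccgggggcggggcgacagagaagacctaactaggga
The match of Nfkbia lies from −29 to −20 and that of Nfkbie from −106 to −97 relative to the start. Their genes differed little between the libraries, as given above.

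The feedback enzymes held the largest difference of the group. Tnfaip3 (ENSMUSG00000019850, chr10:19000910-19015657, minus strand) encodes A20, a ubiquitin-editing enzyme that shuts off signalling upstream of IKK. Its FPKM was 5.14 (2521 counts) in the library labelled OE and 2.25 (1504 counts) in the library labelled control, although the latter library held more counts in all. The plain ratio was 2.28 (2.14 to 2.44), and the log2 ratio with the added 1 was 0.92 (0.85 to 0.99). It lay above 0 under all 10 alternatives, from 0.68 with the GC trend removed to 1.19 for the plain ratio, and 3.93% of the expressed genes had a higher log2 ratio. Tnfaip3 moved from the ninth place among the 10 genes in the library labelled control to the seventh in the library labelled OE.

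Birc3 (ENSMUSG00000032000, chr9:7848699-7873186, minus strand), which encodes the ubiquitin ligase cIAP2, was at 4.25 FPKM (1447 counts) against 3.13 FPKM (1451 counts), 1.36 times as high (1.26 to 1.46). This difference was close to the GC trend, since its log2 ratio fell from 0.35 to 0.03 when the trend was removed. Of the 31-base words of Birc3, 11.59% also occur in transcripts of other genes, so part of its count could belong to them. One of these is Birc2, the nearest paralogue and the source of cIAP1, which was at 5.78 FPKM (1800 counts) against 2.91 FPKM (1232 counts), with a log2 ratio of 0.79 (0.71 to 0.88) and 0.45 after removal of the GC trend. Within a library, Birc3 to Birc2 was 0.735 against 1.08 (ratio of ratios 0.683, 0.616 to 0.756), so the paralogue differed more.

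Ratios within a library gave the same direction for Tnfaip3. Tnfaip3 to Nfkbia was 0.106 in the library labelled OE and 0.0439 in the library labelled control, 2.42 times as large (2.25 to 2.6). Tnfaip3 to Birc3 was 1.21 against 0.719, 1.68 times as large (1.53 to 1.85). On the log2 scale these plain differences were 1.27 and 0.75, and they were 0.96 and 0.85 with the GC trend removed. Tnfaip3 over Rela was 1.19, and 0.59 with that trend removed. With the added 1 and the trend removed, the differences were 0.76, 0.65 and 0.43.

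The Tnfaip3 promoter is shown because its gene differed most. Its window, at the first of 2 annotated starts, is chr10:19015391-19015540 on the minus strand, in the same layout.
Tnfaip3: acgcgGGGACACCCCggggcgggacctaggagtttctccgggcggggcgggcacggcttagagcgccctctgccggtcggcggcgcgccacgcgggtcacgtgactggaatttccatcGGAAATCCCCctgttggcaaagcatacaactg
It holds 2 matches, from −125 to −116 and from −12 to −3, while the promoter at the second start had 0 matches to the consensus. In the RefSeq promoter table, which spans 250 bases before to 50 bases after each start, 7 of the 10 genes had an entry, and Nfkb1, Relb and Nfkbiz did not. Of these 7, Nfkb2, Rel, Nfkbia, Nfkbie and Tnfaip3 had a kappaB consensus match in at least 1 of their promoters and Rela and Birc3 did not, against 5.14% of 27025 genes in the table. The shorter core GGGANNTTC, which can overlap the consensus, was found in Nfkb2 and Nfkbia, against 4.47% of genes. The interferon response element, searched as GAAANNGAA, was found in Nfkbia, against 9.76% of genes, and the gamma-activated site, searched as TTCNNNGAA, in Nfkb2, against 9.55%. All were searched on both strands. A match describes letters and not binding, and genes with a match included both the largest difference, Tnfaip3, and one of the smallest, Nfkbia.

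**Figure D3:**
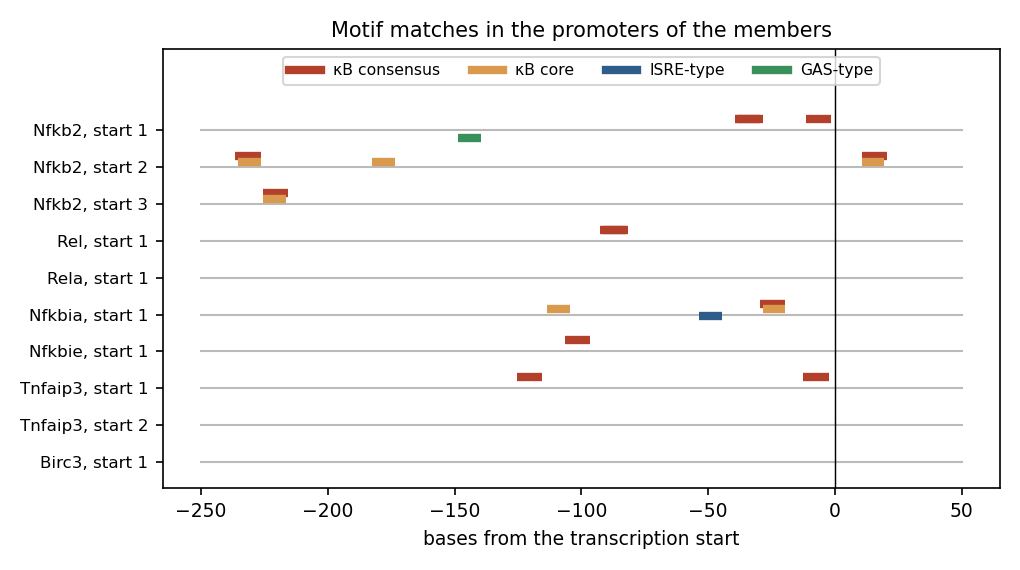
Positions of motif matches in the promoters of the 7 genes with an entry, as distance in bases from the annotated start, with 1 line per start. The kappaB matches of Tnfaip3, Nfkbia and Nfkb2 at the first start include ones between −39 and −2, and Rela and Birc3 have none.

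Removing the trend over GC content shifted each log2 ratio of the group by the median of its GC bin. The genes with the highest GC, Nfkb2 and Rela at 59.6% each, thus gained most, while Rel at 42.5% and Birc3 at 45.3% lost most. The size of these shifts is set by the correction and is no result about the genes. After removal the median of the group was 0.03, beside −0.07 over all genes tested and 0.00 over expressed genes, where the removal itself sets the median. Tnfaip3, at 47.1% GC, kept 0.68, and Relb, at 56.3% GC, kept −0.42, and these were the highest and the lowest of the 10. What part GC content had in each difference was not tested.

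**Figure D4:**
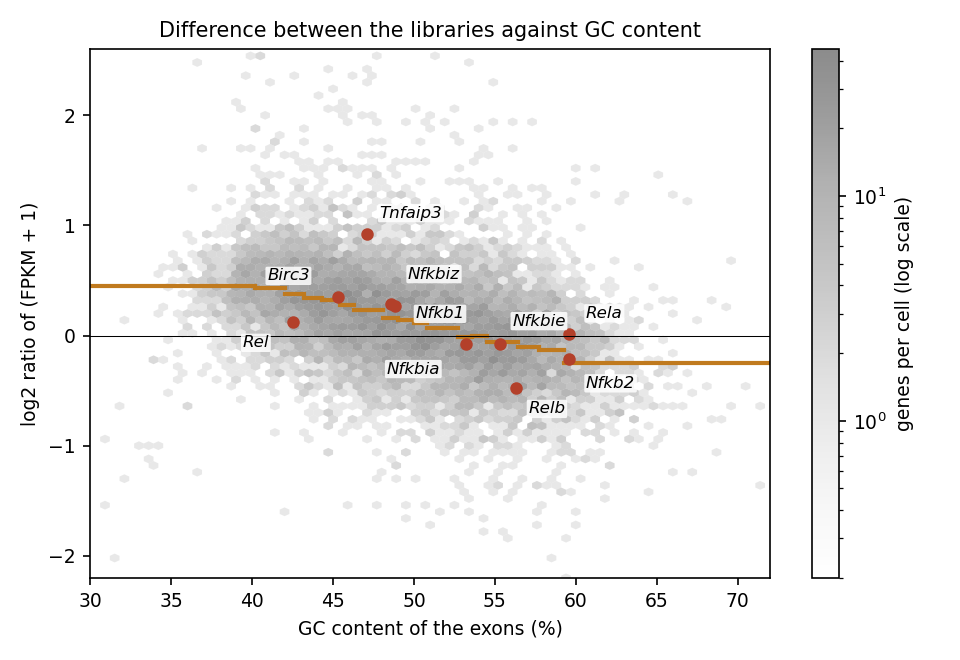
Log2 ratio of (FPKM + 1) against the GC content of the exons (%) for expressed genes, with the median of each of 20 bins and the 10 genes named, leaving out 57 genes beyond the axes. The bin medians run from 0.45 to −0.25, with Tnfaip3 above and Relb below the line.

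The other genes of the pathway were taken as lists and read against the same background. Of the ligands and receptors that start the signal, 2 of 17 tested were at least 2-fold higher, against 1.73% of all genes tested, and 0 lower, against 0.58%, with a median log2 ratio of 0.07. The count depended on the scale, with 0 higher once the GC trend was removed with the added 1, and 4 higher and 1 lower with a pseudocount of 0.1. By the plain ratio, which takes in genes of few reads, 7 were higher and 1 lower. With the GC trend removed from the plain ratio, 6 were higher and 1 lower. No share over all genes tested was computed for the pseudocount of 0.1 or for the plain ratio. Among the 11 expressed genes of the list, the plain ratio gave 2 higher, against 6.59% of all expressed genes, and 0 lower, against 1.85%. With the added 1, the 2 higher genes were Tlr3, the receptor for double-stranded RNA, at 5.53 against 1.49 FPKM (log2 ratio 1.39, and 0.96 with the GC trend removed), and Tlr2, which recognises bacterial lipoproteins, at 34.5 against 16.7 FPKM (1.01 and 0.87). Of the adaptors and kinases, 0 of 20 were at least 2-fold higher or lower and the median was 0.32. The 3 largest were Ikbke, an IKK-related kinase, at 12.4 against 6.12 FPKM (0.91), Chuk, the IKK-alpha subunit, at 8.33 against 4.54 FPKM (0.75), and Tab2, an adaptor of the TAK1 kinase, at 12.2 against 7.57 FPKM (0.63). With the GC trend removed the median of these 20 genes was 0.07.

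Among 15 further inhibitors and feedback genes the median was 0.28 (0.11 with the GC trend removed). Of them, 1 was at least 2-fold higher, against 1.73% of all genes tested, and 0 were lower, against 0.58%. That gene was Trim30a, an interferon-inducible member of the TRIM family, at 36.8 against 8.29 FPKM (log2 ratio 2.03), which has close paralogues that can share reads. Of 29 target genes of NF-kappaB, 4 were at least 2-fold higher, against the same 1.73%, and 0 lower, against 0.58%. Their median was 0.30, and 0.08 with the GC trend removed. The counts were 2 higher and 0 lower with that trend removed and the added 1 kept, against 246 and 142 of the 21364 genes tested. By the plain ratio the target counts were 6 higher and 2 lower, and 5 higher and 2 lower with the trend removed from it. No share over all genes tested was computed for the plain ratio. Among the 26 expressed targets, the plain ratio gave 5 higher, against 6.59% of all expressed genes, and 0 lower, against 1.85%. Il6, the inflammatory cytokine, was at 8.05 against 1.83 FPKM (1.68), Nos2, the inducible nitric oxide synthase, at 175 against 55.2 FPKM (1.65), Ptgs2, which encodes COX-2, at 37.8 against 14.1 FPKM (1.36), and Cxcl2, a neutrophil chemokine, at 3.48 against 1.03 FPKM (1.14). With the GC trend removed these were 1.23, 1.65, 0.91 and 0.83. Several of these 4 also respond to interferon or other signals, and the source of their differences was not tested.

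A list of interferon response genes served as a comparison. In it, 17 of 18 were at least 2-fold higher, against 1.73% of all genes tested, and 0 lower, against 0.58%. The gene not called was Irf9 at 0.97, which is named after its value was seen. The median log2 ratio was 2.67, and 2.44 with the GC trend removed. The 6 largest were the chemokine genes Ccl5 (6.01) and Cxcl10 (4.08), the transcription factor gene Irf7 (3.67), the antiviral genes Ifit3 (3.45) and Rsad2 (3.28), and the GTPase gene Gbp3 (3.14). All 10 NF-kappaB subunit and feedback genes were below that median, the highest being Tnfaip3 at 0.92. The lists were chosen with results of these data known, and their counts and medians describe them without a test. They were not screened for genes that respond to both pathways, so the comparison does not separate the pathways.

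**Figure D5:**
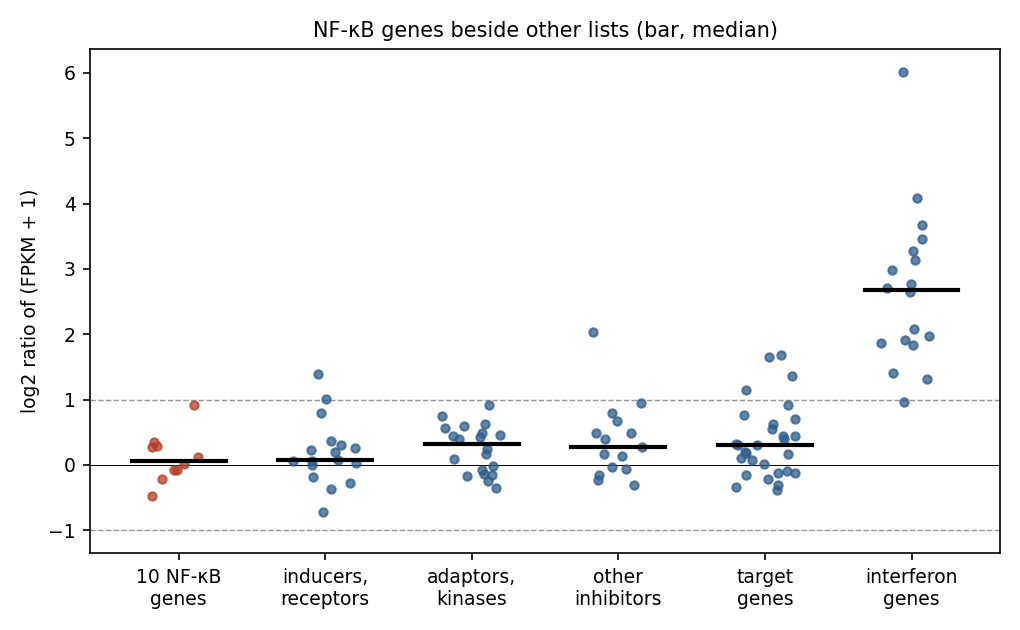
Log2 ratio of (FPKM + 1) of every gene tested in the group and in each pathway list, library labelled OE over library labelled control, with 1 point per gene and the list median marked. The NF-kappaB group is centred at 0.06, the target genes at 0.30 and the interferon genes at 2.67.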

How the data were processed

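Poly(A) RNA of FAPs was sequenced from 1 library per condition, grouped by the labels. The authors deposited, for each gene, the raw count of reads and the FPKM, rounded to 2 decimals, which is that count scaled by gene length and library total. The FPKM of 98.7% and 98.8% of genes with an FPKM of at least 5 lay within 1% of the count divided by summed exon length and 1 total. The paper names STAR and FeatureCounts for mapping to mm10, whereas the submitters' processing notes list cutadapt 1.9, HISAT2 2.2.1, StringTie 2.1.6, DESeq2 and edgeR. Which of these made the files could not be settled.

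The measure was the log2 ratio of (FPKM + 1), with a call at 1 or −1, over genes with more than 3 counts in at least 1 library. Count models need replicates and none was run. The 95% intervals came from the deposited counts (scipy 1.17.1). They were exact Clopper-Pearson for ratios between libraries and exact Poisson for levels. For ratios of ratios they were a normal approximation for the log odds ratio. TMM factors only were supplied by edgeR 4.0.16. GC and length trends were removed as medians in 20 bins over 11207 genes averaging 1 FPKM or more, using GENCODE M21, which holds 99.7% of the gene identifiers. Alternatives were a pseudocount of 0.1, none, CPM, centring, rescaling, TMM, both trends and a 1.5-fold threshold. GC removal from the plain ratio, within-library ratios and transcript lengths were added after seeing the data. The calculations were tested on simulated data.

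The members, gene lists and rule for named genes were chosen with earlier results of these data known. The rule named all members, Tgfbr3, genes that overlap or are paralogues of a member, and from each list the genes at least 2-fold different (at most 6), or else the 3 largest averaging 1 FPKM or more. Bcl2a1b and the markers Pax7, Myod1, Myf5, Cd3e, Cd3g, Cd8a and Ms4a1, among others, were not analysed here.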

Additional observations from a re-analysis of the deposited data

How the results depend on the processing

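Depth limited Rel most, with 253 and 259 counts, and 1 library per condition left the spread between cultures unmeasured. No paired analysis was possible because each condition had 1 library. The signs of Rela, Rel, Nfkb2 and Nfkb1 depended on scaling, holding under 5, 6, 8 and 9 of 10 alternatives, and those of the other 6 genes held under all 10. Tnfaip3 was the 1 gene of the group at least 2-fold higher with a pseudocount of 0.1, by the plain ratio, and by CPM with and without an added 1, and the 1 gene past a threshold of 1.5-fold. With the length trend removed, 3 genes of the group were above 0. The median of the group was 0.15 with a pseudocount of 0.1 and by the plain ratio, 0.13 and 0.14 by CPM with and without an added 1, −0.06 when centred, −0.07 under TMM and −0.08 with the length trend removed.

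Medians of the lists also moved. Inducers and receptors had 0.49 with a pseudocount of 0.1, 0.31 and 0.29 by plain FPKM and CPM, 0.15 by CPM with an added 1, −0.06 when centred, 0.09 rescaled, under TMM and with the length trend removed, and 0.01 with the GC trend removed from either ratio. Adaptors and kinases had 0.44 and 0.42 by plain FPKM and CPM, 0.19 centred, 0.38 rescaled, 0.14 under TMM, 0.07 and 0.10 with the GC trend removed with and without the added 1, and 0.09 with the length trend removed. Other inhibitors had 0.52 with a pseudocount of 0.1, 0.50 and 0.48 by plain FPKM and CPM, 0.47 by CPM with an added 1, 0.15 centred and with the length trend removed, 0.35 rescaled, and 0.11 with the GC trend removed from either ratio. Target genes had 0.17 centred, 0.36 rescaled, 0.10 under TMM, 0.08 and 0.14 with the GC trend removed, and 0.19 with the length trend removed. Interferon genes had 2.75 with a pseudocount of 0.1, 2.76 and 2.74 by plain FPKM and CPM, 2.72 by CPM with an added 1, 2.55 centred, 2.74 rescaled, 2.52 under TMM, 2.44 and 2.49 with the GC trend removed, and 2.61 with the length trend removed. By the plain ratio, 1 of the adaptors and kinases was at least 2-fold higher and 1 lower, and 3 of the other inhibitors were higher and 0 lower. No share over all genes tested was computed for that ratio. Among expressed genes alone, 1 of 17 adaptors and kinases and 2 of 13 other inhibitors were higher, against 6.59% of all expressed genes. In both lists 0 of these were lower, against 1.85%. Plain medians of lists covered genes averaging 1 FPKM or more. The cause of these shifts was not tested.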

Other observations

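Genes of the pathway with low levels, which the added 1 keeps near 0, were chosen for description after their values were seen. Tnf, the ligand that gives the canonical pathway its best known trigger, had 29 counts in the library labelled OE and 8 in the library labelled control, a plain ratio of 5.20 (95% counting interval 2.32 to 13.20). Il1a, another activating ligand, had 24 and 6 counts, a plain ratio of 6.0 (2.39 to 17.90). Tnip3, which encodes a partner of A20, had 93 and 23 counts, a plain ratio of 6.0 (3.77 to 9.93). Among target genes, the collagenase gene Mmp13 had 251 and 64 counts (5.31, 4.02 to 7.10) and the cytokine gene Csf2 had 86 and 39 counts (3.02, 2.05 to 4.53). Others were lower in the library labelled OE. Mmp9, a gelatinase gene among the targets, had 24 and 117 counts, a plain ratio of 0.286 (0.176 to 0.446). Tnfsf11, the ligand RANKL, had 0 and 27 counts, the target Csf3 had 0 and 10 counts, and the adaptor Traf1 had 4 and 19 counts. Their FPKM lay between 0.00 and 1.57 in both libraries, so these differences rest on few reads. The plain ratios are also of FPKM rounded to 2 decimals, and the counting intervals do not cover that rounding. Tnip3 was at 0.12 against 0.02 FPKM, and Il1a at 0.18 against 0.03 FPKM. By CPM, Tnip3 was at 1.49 against 0.275 and Il1a at 0.385 against 0.0716, a smaller ratio for both. The ratio of 6.0 printed for each is therefore approximate.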
